A study of Mus musculus with 48 samples.

Results

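The comparison set ATF7+/- offspring against wild-type offspring when both had been sired by males on a low protein diet. Its members were 16 liver arrays, 8 per genotype, of 48 arrays in all, chosen by the genotype and paternal diet in the labels. Every offspring was 3 weeks old, the liver piece was the median lobe, and the fathers had been fed their diet between 3 and 12 weeks of age. The other arrays used here came from ATF7+/- and wild-type offspring of control-diet fathers (8 each) and from ATF7+/+ offspring of low-protein fathers (8). The 8 ATF7+/+ arrays of control-diet fathers entered the filter, the fit's estimate of the spread and the overall means, but no comparison. The labels name the genotype of each offspring but not its own sex, its litter or the altered part of the Atf7 gene, and they do not say how ATF7+/+ animals differ from wild-type animals. The series describes the 8 arrays of a group as independent biological experiments.

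ATF7 is a leucine-zipper transcription factor of the ATF2 family that binds cyclic-AMP-response-type elements. It is known to help place repressive methylation on histone H3 lysine 9 at its target genes. Stress-activated kinases such as p38 phosphorylate it, after which it leaves those genes, and it has been studied as a carrier of paternal diet effects to the liver of the next generation. The growing liver of a weanling mouse still holds dividing hepatocytes, makes cholesterol and fatty acids under the control of SREBP transcription factors, and secretes hepcidin, the hormone that limits iron uptake.

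No gene passed the test between the genotypes among these 16 livers, and most genes were bounded to small differences. Cell-division genes had lower means in ATF7+/- livers throughout the list examined, and none of them passed. Cholesterol-synthesis genes, which rose in ATF7+/- livers of control-diet offspring, had lower means in ATF7+/- livers here over all arrays but not in array set A (list median 0.16 there and -0.66 in set B). For most of them the difference between the diets passed. Values are log2 expression, differences are ATF7+/- minus wild-type with the standard error of a limma fit, and passing means an adjusted p (Benjamini-Hochberg) under 0.05 among 13542 genes. Low protein and control diet always name the diet of the father, not that of the offspring.

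The arrays fell into 2 sets, found from probe sets with no listed gene, with 3 arrays of set A and 5 of set B in each of the groups. The labels give no batch, so the sets have no stated origin. Same-numbered ATF7+/- and wild-type arrays of the low-protein groups lay in the same set and the same class of Y-linked expression, and 5 of 8 arrays in each of these groups had high Y-linked expression. Array medians ran from 5.89 to 6.12. The 9 measured hepatocyte markers of 10 listed were strongly expressed. The lowest, Hnf4a, averaged 11.28 in ATF7+/- and 11.35 in wild-type livers, and the highest, Alb, averaged 13.52 in ATF7+/- and 13.49 in wild-type livers. Their differences lay between -0.08 and 0.10. In a piece of tissue, fewer cells of a type and less RNA per cell cannot be told apart.

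Atf7 itself was measured by 2 probe sets, both listed under 1 gene symbol. On the second, dimmer probe set the 8 ATF7+/- livers spanned 6.98 to 8.06 with a median of 7.89, against 7.84 to 8.63 with a median of 8.33 in the 8 wild-type livers. Over all arrays the groups overlapped, and the set A arrays read lower than the set B arrays in both. Within set A the ATF7+/- livers lay between 6.98 and 7.59 and the wild-type livers between 7.84 and 8.22; within set B the ATF7+/- livers lay between 7.85 and 8.06 and the wild-type livers between 8.30 and 8.63. So within each array set every ATF7+/- liver was below every wild-type liver. The mean was 7.72 ± 0.37 in ATF7+/- and 8.31 ± 0.29 in wild-type livers (SD, n = 8 each), a difference of -0.59 ± 0.13 (95% interval -0.84 to -0.33), or 66.6% of the wild-type level. The unadjusted p was 3.15e-05 and limma's adjusted p was 0.426, with 0.146 when the array set was a block and 0.230 when the replicate number was a block. It passed in set B alone, at -0.53 with an adjusted p of 0.0478, and with array weights, at -0.56 with an adjusted p of 0.0386.

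The first, brighter Atf7 probe set separated the genotypes less. It ranged from 8.38 to 8.88 (median 8.69) in ATF7+/- livers and from 8.68 to 8.94 (median 8.79) in wild-type livers, so the groups overlapped. Its difference was -0.14 ± 0.08, limma adjusted p 1, which is 90.7% of the wild-type level. Which part of the gene each probe set reads is not given in the sources used here, so neither probe set is a full check of the altered allele. In offspring of control-diet fathers the second probe set fell by 0.87 ± 0.13 in ATF7+/- livers (limma adjusted p 2.98e-05), with means of 7.72 in ATF7+/- and 8.59 in wild-type. The difference between the diets on this probe set, 0.29 ± 0.18, did not pass (adjusted p 0.696). Against the ATF7+/+ livers of low-protein fathers, which averaged 8.61 ± 0.14 (SD, n = 8), the same ATF7+/- livers were lower by a difference of -0.89 ± 0.13 (adjusted p 0.000152), a comparison that shares the ATF7+/- arrays. This probe set was tested beside the 13542 genes and is not in their counts.

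**Figure D1:**
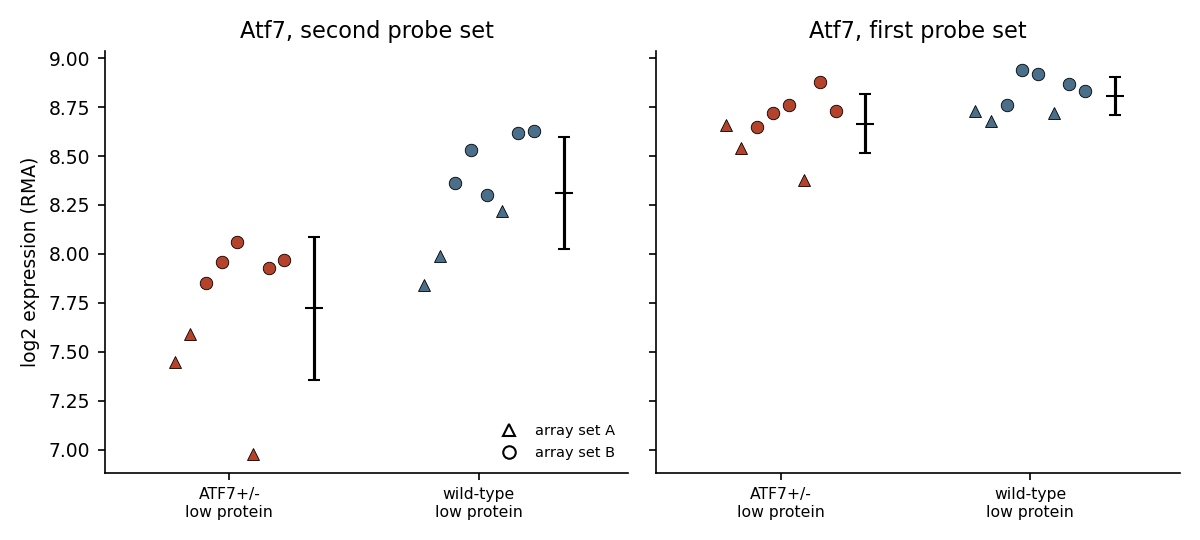
Log2 expression of both Atf7 probe sets in each liver from low-protein fathers, ATF7+/- left of wild-type; triangles are array set A, circles set B, bars the mean ± SD (n = 8). On the second probe set every ATF7+/- liver lies below every wild-type liver of its own array set, while on the first probe set the groups overlap.

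The wider family showed small differences. Of 18 measured ATF2-family, AP-1 and stress-kinase genes, Atf7 by its first probe set included, 0 passed, all 18 intervals lay within 1.5-fold, and the differences ranged from -0.25 to 0.12. Mapk14, which encodes the p38 kinase, was the only member at an unadjusted p under 0.05, with a mean higher by 0.12 (limma adjusted p 1). The list of histone H3 lysine 9 methylation and heterochromatin genes was as narrow: 0 of 13 measured members passed, and they ranged from -0.07 to 0.07.

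Across all genes, 0 of 13542 passed (0%), and the smallest limma adjusted p was 0.772. At an unadjusted p under 0.05 there were 377 genes (2.78%), of which 288 (2.13%) had lower and 89 (0.657%) higher means in ATF7+/- livers, where 5% would be below that p if nothing differed. The median standard error of a difference was 0.10, and the 95% interval lay within 1.5-fold either way for 12845 genes (94.9%) and within 2-fold for 13423 (99.1%). The livers of the genotypes did not overlap at all for 9 genes (0.0665%). In 6 of them (0.0443%) every ATF7+/- liver was lower: Troap, Gtse1, Diaph3, Esco2 and Arhgef39, all linked to mitosis, cytokinesis or chromatid cohesion apart from the guanine-exchange factor Arhgef39, and the ubiquitin-ligase-family gene Trim16. In the other 3 (0.0222%) every ATF7+/- liver was higher: the F-box gene Fbxo46, the ubiquitin-ligase adaptor Ndfip1 and the glucuronosyltransferase Ugt2b1.

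**Figure D2:**
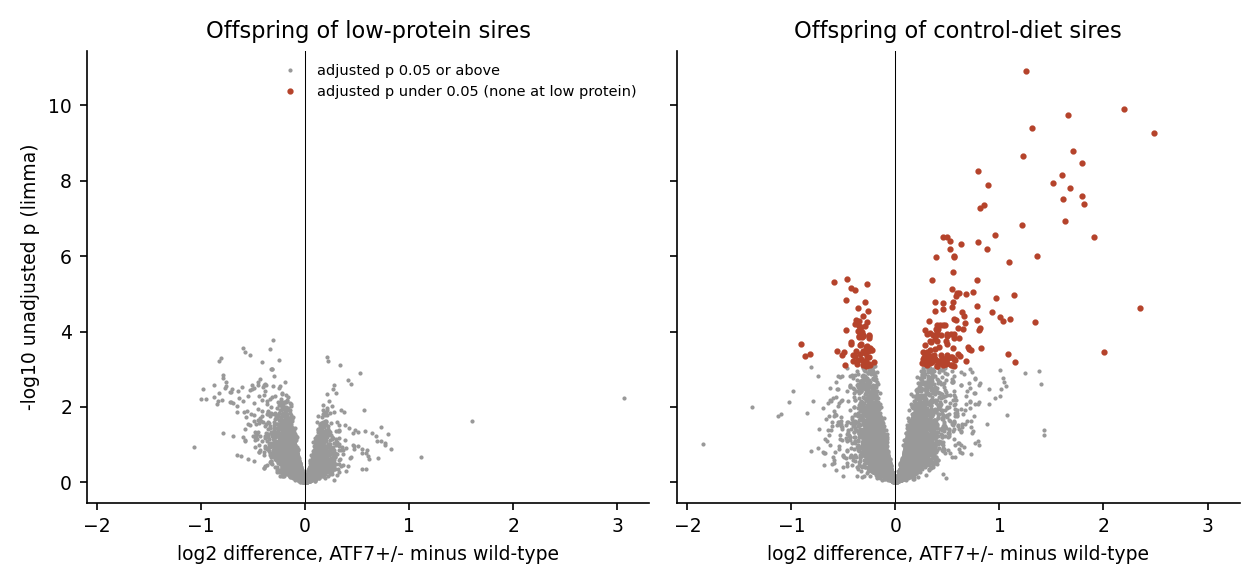
Log2 difference (ATF7+/- minus wild-type, horizontal) against -log10 of the unadjusted limma p (vertical) for 13542 genes, in offspring of low-protein fathers (left) and of control-diet fathers (right); red points have an adjusted p under 0.05. There are 0 red points on the left and 224 on the right.

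Of the 10 genes with the smallest p among those lower in ATF7+/- livers, most take part in cell division. None of them passed. Espl1, which encodes separase, the protease that releases sister chromatids, ranged from 5.19 to 5.53 (median 5.33) in ATF7+/- livers and from 5.44 to 5.85 (median 5.67) in wild-type livers. The highest ATF7+/- livers overlap the lowest wild-type liver. Its difference was -0.31 ± 0.08 (limma adjusted p 0.772). Bub1b, a kinase-like protein of the spindle checkpoint, ranged from 5.54 to 6.06 in ATF7+/- livers, against 5.87 to 6.90 in wild-type livers, with medians of 5.93 and 6.46 and a difference of -0.53 ± 0.14. Kif18b, a kinesin that trims spindle microtubules, ranged from 5.62 to 6.02 in ATF7+/- livers, against 5.98 to 6.78 in wild-type livers, with a difference of -0.57 ± 0.15. For all 3 genes the overlap lay in set B, and in set A every ATF7+/- liver was below every wild-type liver. Set A holds only 3 livers per genotype, and how many of all genes separate in this way there was not counted. The 3 genes were also chosen by their p over these same arrays, which favours such a separation. The rest of the 10 are Aspm (-0.60), Troap (-0.34), Ckap2l (-0.81) and Prr11 (-0.83), all of spindle or mitotic function, the centromeric histone Cenpa (-0.41), the fetal RNA-binding protein gene Igf2bp3 (-0.32) and Trim16 (-0.25), with adjusted p from 0.772 to 0.910. Probe sets with a mean under 5.46 were not kept. The ATF7+/- median of Espl1 lies below that level, as do some ATF7+/- livers for Aspm and Ckap2l. The deposited values carry no detection call, so the sizes of these differences are uncertain.

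Of those 10 genes, 9 are in the RefSeq promoter table of build GRCm38.p6. Of the 9, 8 hold both a CHR and a CCAAT box between 250 bases before and 50 bases after the gene start. The 8 include the fetal RNA-binding protein gene Igf2bp3, while Troap holds a CCAAT box without a CHR. CHR stands for the letters TTTGAA and the CCAAT box for CCAAT, each searched on both strands; pairs of these elements are known from promoters of genes switched on late in the cell cycle. Both are also found in 6.95% of the 32851 promoters in the table, CHR in 17.9% and CCAAT in 37.4%; counted per gene over any of its promoters, both are found in 5.6% of the 10761 tested genes there. Both occur in 12 of the 21 measured cell cycle list members that are in the table, and CCAAT in 18 of the 21. The promoters of the 3 division genes just described are shown. They are printed 5′ to 3′ along the gene's strand with the CHR and CCAAT letters in capitals.

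Espl1, chr15:102296043-102296342, plus strand: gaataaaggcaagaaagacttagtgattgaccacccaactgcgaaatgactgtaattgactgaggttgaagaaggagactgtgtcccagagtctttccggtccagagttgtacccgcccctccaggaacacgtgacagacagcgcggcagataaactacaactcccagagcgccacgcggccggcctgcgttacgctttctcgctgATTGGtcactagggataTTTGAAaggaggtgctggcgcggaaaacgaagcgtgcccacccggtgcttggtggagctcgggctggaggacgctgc

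Bub1b, chr2:118597961-118598260, plus strand: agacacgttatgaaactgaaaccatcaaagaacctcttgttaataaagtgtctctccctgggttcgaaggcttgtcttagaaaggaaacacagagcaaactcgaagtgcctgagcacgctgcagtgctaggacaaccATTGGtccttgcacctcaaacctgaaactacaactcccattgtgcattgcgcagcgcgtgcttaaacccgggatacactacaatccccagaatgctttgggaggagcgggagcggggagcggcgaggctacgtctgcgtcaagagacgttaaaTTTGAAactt

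Kif18b, chr11:102925075-102925374, minus strand: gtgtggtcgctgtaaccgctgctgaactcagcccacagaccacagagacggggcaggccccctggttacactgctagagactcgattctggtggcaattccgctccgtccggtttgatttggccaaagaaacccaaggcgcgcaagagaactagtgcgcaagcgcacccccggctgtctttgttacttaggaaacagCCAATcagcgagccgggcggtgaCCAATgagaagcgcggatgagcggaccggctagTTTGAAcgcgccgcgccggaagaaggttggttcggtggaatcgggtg

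The CHR starts at an offset of -27 from the gene start in Espl1, 40 in Bub1b and 3 in Kif18b, and the CCAAT letters or their reverse complement start at -44, at -113, and at -53 and -30. Troap, whose product binds microtubules and whose 8 ATF7+/- livers (5.89 to 6.24) were all below the 8 wild-type livers (6.28 to 6.63), is the only one of the 9 with the palindromic CRE, TGACGTCA, the kind of element that ATF and CREB proteins are known to bind. The CRE is present in 1.79% of the promoters counted and, per gene over any of its promoters, in 3.27% of the 10761 tested genes there. In Troap the CRE stands at -46 and is in capitals, while the CCAAT letters are not marked.

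Troap, chr15:99074723-99075022, plus strand: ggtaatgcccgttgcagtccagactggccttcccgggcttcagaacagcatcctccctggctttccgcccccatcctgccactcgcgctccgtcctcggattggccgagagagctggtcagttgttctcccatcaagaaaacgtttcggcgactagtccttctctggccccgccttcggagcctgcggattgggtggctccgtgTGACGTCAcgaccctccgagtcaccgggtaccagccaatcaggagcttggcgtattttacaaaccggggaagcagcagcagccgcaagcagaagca

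The cell cycle list moved in the same direction throughout, and none of its members passed. Of 25 measured members of 30, all 25 had lower means in ATF7+/- livers, where 54.5% of all genes did, and 17 had an unadjusted p under 0.05 with a lower mean, as 2.13% of all genes did. The median difference was -0.53, against -0.01 over all genes tested. The median was -0.50 within set A, -0.57 within set B, and -0.62 to -0.48 when each array was left out in turn. The mean over the list lay between -0.48 and 0.12 in ATF7+/- livers (median -0.14) and between -0.02 and 0.95 in wild-type livers (median 0.38). The spans overlap through 1 wild-type liver, at -0.02, and the 3 ATF7+/- livers above it. The list was chosen with earlier results of these data known, so its direction is not independent evidence.

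The largest differences in the list were those of 2 cyclins and a mitotic kinase. Ccnb2, cyclin B2, ranged from 6.86 to 8.19 (median 7.55) in ATF7+/- livers and from 8.07 to 9.36 (median 8.46) in wild-type livers, a difference of -1.003 ± 0.348. Ccna2, cyclin A2, ranged from 6.22 to 7.37 (median 6.79) in ATF7+/- livers, against 7.20 to 8.42 (median 7.83) in wild-type livers, a difference of -0.99 ± 0.32. In both genes only the highest ATF7+/- livers reached the lowest wild-type livers. Plk1, the polo-like kinase of mitotic entry, differed by -0.96 ± 0.33, and passed within set A alone at -0.95 (adjusted p 0.0328). Mki67, whose product marks dividing cells, differed by -0.85 ± 0.31, with ranges of 6.58 to 7.53 in ATF7+/- and 7.21 to 8.46 in wild-type livers. Replication genes stood lower by less, with Tyms at -0.27 and Mcm5 at -0.39.

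The genotype difference of these genes was set beside that in control-diet offspring. The list median was 0.33 in control-diet offspring, where 0 members passed, and the median of the difference between diets was -0.84, with 5 of the 25 passing as lower, where 0.569% of all genes did: Mki67 (-1.89 ± 0.44, limma adjusted p 0.0261), Ccna2 (-1.94 ± 0.46, 0.0266), Nusap1 (-1.35 ± 0.34, 0.0396), Top2a (-1.41 ± 0.35, 0.0396) and Kif11 (-1.36 ± 0.34, 0.0445). These calls are near the threshold. Of 31 fits that left out 1 array, Ccna2 lost its call in 6, Mki67 in 5, Nusap1 and Top2a in 16 each and Kif11 in 20, with adjusted p up to 0.1; all 5 lost it without replicate 8 of the low-protein ATF7+/- group, without replicate 8 of the low-protein wild-type group, and without replicate 1, 4 or 8 of the control-diet wild-type group. With the replicate number as a block, Top2a had an adjusted p of 0.0587. Outside the list, Prr11 (-1.40 ± 0.32, adjusted p 0.0241), Kif18b (-0.92 ± 0.21, 0.0241), Espl1 (-0.45 ± 0.11, 0.0322) and Cenpa (-0.63 ± 0.16, 0.0478) also passed. Of the 31 fits, Kif18b lost its call in 2, Prr11 in 4, Espl1 in 9 and Cenpa in 21, and Cenpa also with the replicate block (0.0570). The highest mean of the cell cycle list over these 4 groups was in wild-type livers of low-protein fathers (0.43 ± 0.34, n = 8), while ATF7+/- livers of low-protein fathers averaged -0.13 ± 0.19, ATF7+/- livers of control-diet fathers 0.00 ± 0.29 and wild-type livers of control-diet fathers -0.38 ± 0.55 (n = 7, after averaging a near-identical pair).

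**Figure D3:**
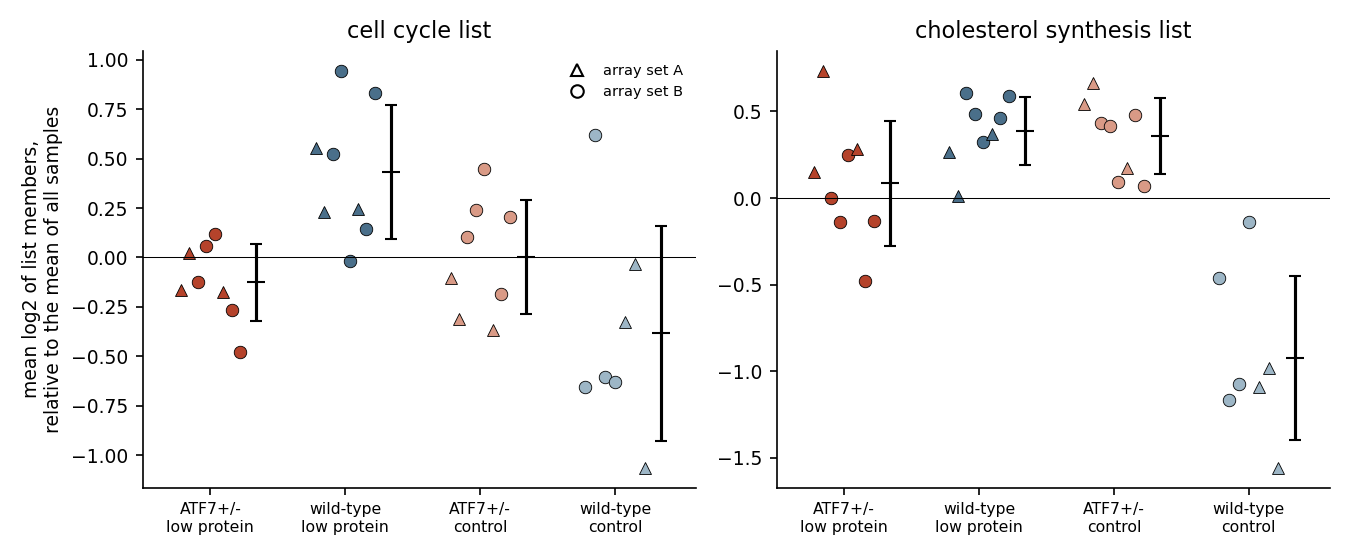
Mean log2 expression over the 25 measured cell cycle genes (left) and the 19 measured cholesterol synthesis genes (right) in each liver, relative to the mean of all samples; triangles are array set A, circles set B, bars the mean ± SD. In low-protein offspring ATF7+/- livers lie mostly below wild-type livers on the left, and in control-diet offspring wild-type livers lie low on the right.

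Cholesterol synthesis genes rose in ATF7+/- livers from control-diet fathers and did not pass in those from low-protein fathers. In control-diet offspring all 19 measured members of 24 rose in ATF7+/- livers, with a median of 1.31, where 224 genes passed among all tested (1.65%; 158 higher, 1.17%, and 66 lower, 0.487%). In low-protein offspring all 19 had lower means in ATF7+/- livers, as 54.5% of all genes did, with a median of -0.35. Of them 0 passed, and 3 had an unadjusted p under 0.05 with a lower mean, as 2.13% of all genes did. Between the diets 17 of the 19 passed as lower, against 86 genes in all (0.635%; 77 lower, 0.569%, and 9 higher, 0.0665%). The 2 that did not pass were Insig1 and Stard4.

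Hmgcs1, HMG-CoA synthase, which feeds the rate-limiting step of the pathway, shows the pattern. In low-protein offspring it ranged from 10.06 to 11.72 (median 10.80) in ATF7+/- livers and from 11.02 to 11.57 (median 11.30) in wild-type livers, a difference of -0.56 ± 0.22 (limma adjusted p 1). The ATF7+/- livers spread over a wider span that takes in the whole wild-type range. In control-diet offspring it rose by 1.60 ± 0.22 in ATF7+/- livers, with means of 11.18 in ATF7+/- and 9.58 in wild-type (adjusted p 9.58e-06). The difference between the diets was -2.16 ± 0.31 (adjusted p 3.90e-05) and kept its call in all 31 fits that left out 1 array. The RefSeq promoter of Hmgcs1 holds 1 match to a sterol-response-type motif, TCACNCCAC searched on both strands. This motif was found in 1.24% of the promoters counted, in 1.51% of the tested genes there and in 1 of the 15 cholesterol list members there. The match stands at -137 and is in capitals.

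Hmgcs1, chr13:119690101-119690400, plus strand: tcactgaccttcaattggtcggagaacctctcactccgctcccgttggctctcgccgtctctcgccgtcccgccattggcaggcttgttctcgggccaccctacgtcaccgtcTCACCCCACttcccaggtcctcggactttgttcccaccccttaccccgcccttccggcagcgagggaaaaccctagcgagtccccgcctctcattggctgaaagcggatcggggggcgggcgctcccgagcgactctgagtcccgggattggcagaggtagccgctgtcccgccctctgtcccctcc

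Sqle, squalene epoxidase, had the largest difference between the diets within the list. It ranged from 8.19 to 10.28 (median 9.27) in ATF7+/- livers and from 9.16 to 10.03 (median 9.80) in wild-type livers of low-protein fathers, a difference of -0.49 ± 0.25 that did not pass. In control-diet offspring it rose by 2.19 ± 0.26 in ATF7+/- livers (means 9.73 in ATF7+/- and 7.54 in wild-type), and the difference between the diets was -2.68 ± 0.36 (limma adjusted p 1.59e-05). Dhcr7, the last reductase of the pathway, gave -0.32 ± 0.16 at low protein and 1.31 ± 0.16 on control diet, with a difference of -1.63 ± 0.23 (adjusted p 2.38e-05). Among the mevalonate enzymes, Mvk gave -0.37 at low protein and 0.88 on control diet, and Mvd -0.48 and 1.36; their differences of -1.25 and -1.84 both passed.

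The low-protein differences of these enzymes moved with the array set. For set A arrays the list median was 0.16, for set B arrays -0.66. By gene, Sqle was 0.30 within A and -0.96 within B, Mvd 0.41 and -1.01, Dhcr7 0.13 and -0.58, and Hmgcs1 -0.19 and -0.78. The set A minus set B contrast was 1.25 for Sqle (limma adjusted p 0.734) and 1.42 for Mvd (limma adjusted p 0.725), and 0 genes passed it among all genes tested. With the array set as a block, the difference between diets passed in the limma fit for Sqle, Mvd, Dhcr7 and Hmgcs1, with adjusted p from 1.98e-06 to 0.000627. The block removes a shift shared by all groups. It does not address a genotype difference that changes with the set. In the whole list the ATF7+/- livers averaged 0.08 ± 0.36 and wild-type livers 0.39 ± 0.20 at low protein. On control diet ATF7+/- livers averaged 0.36 ± 0.22 and wild-type livers -0.92 ± 0.47.

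Upstream and neighbouring genes of lipid synthesis followed in part. Srebf2, the transcription factor that drives cholesterol synthesis, ranged from 8.24 to 8.67 (median 8.55) in ATF7+/- livers and from 8.58 to 9.04 (median 8.86) in wild-type livers, a difference of -0.32 ± 0.09 (limma adjusted p 0.910). The ranges overlap between 8.58 and 8.67, and both array sets gave lower means. On control diet Srebf2 rose by 0.41 ± 0.09, and the difference between the diets of -0.73 ± 0.13 passed (adjusted p 0.00105). Srebf1, the factor for fatty acid synthesis, was at 0.29 ± 0.20 and did not pass in any of these comparisons.

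Of the 21 fatty acid synthesis genes measured, 0 passed at low protein, and the median was -0.10 (0.21 in set A, -0.39 in set B). Between the diets 5 of the 21 passed as lower, as 0.569% of all genes did. On control diet 9 of the 21 passed as higher in ATF7+/- livers, as 1.17% of all genes did. Acss2, which makes acetyl-CoA from acetate, gave -0.38 ± 0.23 at low protein and 1.79 ± 0.24 on control diet, with a difference of -2.17 ± 0.34 (adjusted p 0.000115). Acly, ATP citrate lyase, gave -0.32 ± 0.29 and 1.34 ± 0.30, and its difference of -1.67 ± 0.42 (adjusted p 0.0434) lost its call in 20 of 31 fits that left out 1 array. The fatty acid elongase Elovl5 gave -0.10 and 0.79, with a difference of -0.90 that kept its call in all of those fits, and the stearoyl desaturase Scd1 gave -0.03 and 0.35, with a difference of -0.39 that lost it in 10. Fabp5, a fatty acid carrier, gave -0.48 ± 0.30 and 2.49 ± 0.31, with a difference of -2.97 ± 0.44 (adjusted p 5.22e-05).

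Genes outside lipid synthesis also differed between the diets. Rps23rg1, a mouse retrogene of the ribosomal protein gene Rps23, had the smallest p: -0.40 ± 0.13 at low protein (ATF7+/- mean 7.57, wild-type 7.97), 1.25 ± 0.14 on control diet, and a difference of -1.65 ± 0.19 (limma adjusted p 7.88e-07). A probe set of a retrogene may also read its parent transcript, which was not tested. Rdh11, a retinal reductase, gave -0.44 ± 0.19 and 1.66 ± 0.20, with a difference of -2.11 ± 0.28 (adjusted p 1.37e-05). Over the 86 genes that passed, the median difference was -0.23 at low protein and 0.57 on control diet, signs that the choice of these genes by that difference largely fixes, and 68 of the 86 also passed on control diet alone. For the 224 genes called on control diet the median absolute difference was 0.45 there and 0.08 at low protein.

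**Figure D4:**
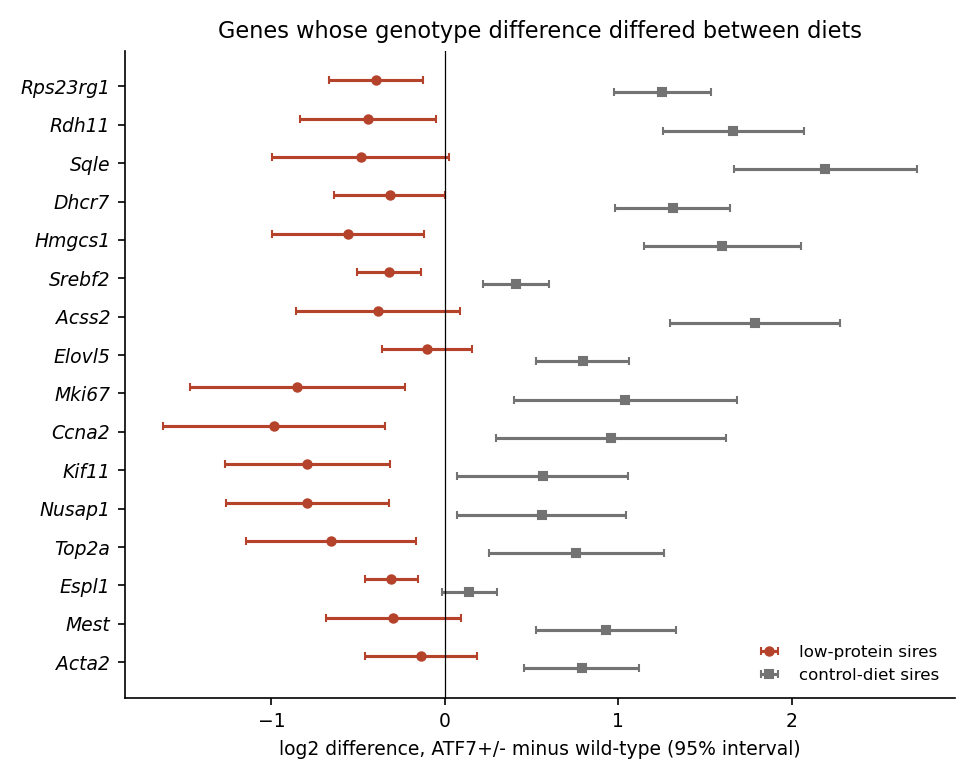
ATF7+/- minus wild-type log2 difference with its 95% interval for 16 genes that passed the test of the difference between diets, in offspring of low-protein fathers (red circles) and control-diet fathers (grey squares). The red points lie below 0 and the grey points above 0 for every gene drawn, with Sqle at -0.49 and 2.19. All genes drawn passed as lower, and choosing them by that difference largely fixes these signs. The 9 genes that passed as higher, Riok2 and Sugct among them, are not drawn.

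Riok2, a ribosome-assembly kinase, and Sugct, a glutarate metabolism enzyme, were among the few that passed between the diets as higher. Riok2 was 0.34 ± 0.09 at low protein and -0.24 on control diet (difference 0.57 ± 0.13, limma adjusted p 0.0257), and it lost the call without ATF7+/- low-protein replicate 8 or wild-type low-protein replicate 6. Sugct was 0.41 ± 0.13 and -0.40, with a difference of 0.82 ± 0.18 (adjusted p 0.0170) that kept its call in all 31 fits. Both are among the 10 genes with the smallest p on the higher side of the low-protein comparison. The others are Fbxo46 (0.21), Cdadc1 (0.22), Asic5 (0.53), Clec2d (0.45), Inmt (0.28), Rdh19 (0.27), Kcnk10 (0.29) and the interferon-responsive Epsti1 (0.21). None of the 10 passed at low protein. Asic5 parted mainly in set A, at 7.34, 6.62 and 6.64 in ATF7+/- livers against 5.66, 5.65 and 5.88 in wild-type livers. In set B Asic5 read 5.78 to 6.03 against 5.59 to 5.89. Its wild-type values are near the level under which probe sets were not kept (5.46).

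Hamp, which encodes hepcidin, had the largest fold of any gene tested. It ranged from 10.41 to 11.94 (median 11.25) in ATF7+/- livers and from 4.18 to 11.84 (median 8.11) in wild-type livers, so the wild-type livers spread over the whole scale while ATF7+/- livers were all high. The difference was 3.06 ± 1.05, or 8.36-fold (95% interval 0.94 to 5.19 on the log2 scale; limma adjusted p 1). In set A the ATF7+/- livers read 11.07, 11.10 and 11.94 against 4.18, 4.67 and 6.84 in wild-type livers. In set B they read 10.41 to 11.94 against 7.41 to 11.84, which gives differences of 6.14 (A) and 1.22 (B) (contrast limma adjusted p 0.876). Of the 3 set A wild-type values, 2 lie below the level under which probe sets were not kept (5.46), and the deposited values carry no detection call, so the size of the set A difference is uncertain. Hamp2, a close paralogue whose transcripts the Hamp probe set could also read, differed by 1.61 ± 0.69, 3.38 within A and 0.54 within B. On control diet Hamp was lower by -1.85 ± 1.09 (ATF7+/- mean 10.54, wild-type 12.39), and the difference between diets of 4.92 ± 1.52 had an adjusted p of 0.134. Hjv, the BMP co-receptor that activates Hamp, was -0.24 ± 0.10. Of the 17 iron genes measured of 18 listed, 0 passed and the median was -0.01.

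Clock genes and Stat5b passed the test within set A alone. Arntl, the clock activator BMAL1, read 5.69, 6.40 and 6.52 in set A ATF7+/- livers against 7.92, 7.98 and 8.02 in set A wild-type livers, a difference of -1.77 (limma adjusted p 0.0328), and -0.05 in set B. Ciart, a clock repressor, stood at 2.59 within A (adjusted p 0.0439) and -0.23 within B, Per3 was 1.59 and 0.15, and Nr1d2 0.58 and 0.17. Activator and repressors stood in opposite directions in set A. The set B values of the clock genes rest on wild-type replicate 4, which read low for Arntl (5.26) and high for Ciart (8.94). Without that array, in values added after the data were seen, set B gave -0.51 for Arntl, 0.31 for Ciart, 0.53 for Per3 and 0.40 for Nr1d2, each in the direction of set A, and 0.002 for Stat5b. For Arntl and Ciart it was the set B wild-type array furthest against set A. Leaving it out thus moves set B towards set A and is not a separate check. The genotypes in set B still overlapped without it for both genes. Stat5b, which relays growth hormone signals, read 7.90 to 8.12 in set A ATF7+/- livers against 8.64 to 8.97 in wild-type livers, a difference of -0.76 (adjusted p 0.0328), and 0.03 in set B.

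These 5 genes and Plk1 are the 6 that passed within set A alone (0.0443% of all tested), while 0 passed within set B alone (0%), where 652 genes (4.81%) had an unadjusted p under 0.05, against 1029 (7.6%) within set A. No gene passed the test of the set A minus set B contrast; for Stat5b it was -0.79 (limma adjusted p 0.271). Set A holds 3 livers per genotype. Whether an origin of the sets moved with these genes was not tested. Over all arrays Arntl was -0.69 ± 0.36 and Stat5b -0.27 ± 0.12, and 0 of the 17 clock and output genes measured passed.

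**Figure D5:**
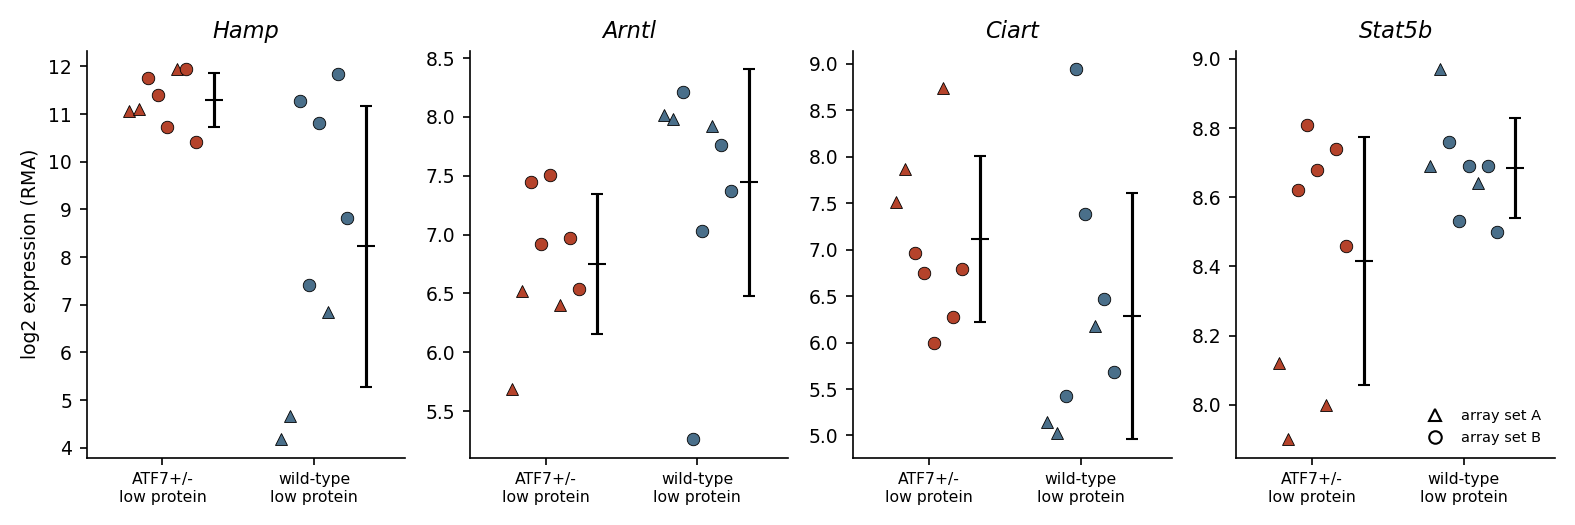
Log2 expression of Hamp, Arntl, Ciart and Stat5b in each liver from low-protein fathers, ATF7+/- left of wild-type; triangles are array set A, circles set B, bars the mean ± SD (n = 8). In set A the genotypes do not overlap for these genes, while in set B they do. Arntl, Ciart and Stat5b are genes that passed within set A alone, and choosing them by that test largely fixes their separation there. How many of all genes separate in set A was not counted. No gene passed the test of the set A minus set B contrast.

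Fetal and imprinted growth genes had lower means. All 13 measured members of 16 had lower means in ATF7+/- livers, as 54.5% of all genes did, with a median of -0.30 (A arrays -0.27, B arrays -0.23). Of them 0 passed, and 5 had an unadjusted p under 0.05 with a lower mean, as 2.13% of all genes did. Igf2bp3, an RNA-binding protein of fetal liver, ranged from 7.01 to 7.59 (median 7.42) in ATF7+/- livers and from 7.59 to 7.88 (median 7.71) in wild-type livers, so the groups met only at 7.59. Its difference was -0.32 ± 0.09 (limma adjusted p 0.910). Afp, the fetal albumin homologue, ranged from 5.62 to 5.86 in ATF7+/- livers, against 5.83 to 6.40 in wild-type livers, a difference of -0.34 ± 0.12. Igf2 was -0.30 ± 0.14. Mest, an imprinted growth gene, was -0.30 ± 0.19 at low protein and rose by 0.93 ± 0.20 on control diet, and its difference between diets of -1.23 ± 0.28 passed (adjusted p 0.0214) except without wild-type control replicate 8 (0.0524). Over the list, ATF7+/- livers averaged -0.03 ± 0.09 and wild-type livers 0.22 ± 0.12 (SD, n = 8 each).

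Drug- and sterol-handling genes stood mostly higher in ATF7+/- livers. Of 29 measured P450 genes of families 1 to 3, 24 had higher means (45.2% of all genes did), the median was 0.14, and 0 passed. Cyp2a12 ranged from 11.73 to 12.03 in ATF7+/- livers, against 11.51 to 11.74 in wild-type livers, a difference of 0.17 ± 0.06, and Cyp2c67 was 0.34 ± 0.13. The differences of these 2 genes are small, on highly expressed genes. Over the list the differences ran from -1.06 to 0.77, and 17 of the 29 intervals lay within 1.5-fold. In the bile acid and sterol transport list 14 of 19 genes had higher means. Its median was 0.05, its differences ran from -0.58 to 1.12, and 0 passed. The efflux pump Abcc3 was 0.57 ± 0.22 and the bile acid transporter subunit Slc51b -0.58 ± 0.27, neither passing. Conjugation enzymes had a median of 0.06 over 27 genes and 0 passed.

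Immune genes also had higher means, mostly by small amounts. Of the 22 interferon-stimulated genes measured, 21 had higher means, as 45.2% of all genes did, with a median of 0.11, and 0 had an unadjusted p under 0.05. Of 15 Kupffer cell and macrophage markers, 14 were higher with a median of 0.13, which stood at -0.02 within A and 0.19 within B and ran from 0.07 to 0.18 with 1 array left out. Of 18 innate immunity and macrophage activation genes 12 were higher, with a median of 0.03. The highest of these differences was 0.51. Of the 18 genes, 1 had an unadjusted p under 0.05 with a higher mean, as 0.657% of all genes did. All 7 measured lymphocyte markers of 18 were higher, with a median of 0.18. Among them Ptprc, the leukocyte marker CD45, was 0.20 ± 0.10 (limma adjusted p 1). Whether the number of immune cells moved with these genes was not tested.

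No marker of the other cell types passed. The median was -0.03 over 15 endothelial markers, -0.07 over 14 stellate markers, -0.11 over 4 cholangiocyte markers, -0.19 over 5 erythroid markers and 0.04 over 7 granulocyte markers. With 1 array left out the erythroid median ran from -0.30 to -0.07. Lyve1, a receptor of sinusoidal endothelial cells, stood out among them: it ranged from 8.61 to 9.14 (median 8.78) in ATF7+/- livers and from 9.01 to 9.55 (median 9.20) in wild-type livers, a difference of -0.40 ± 0.13 (limma adjusted p 1). The stellate gene Des was -0.16 ± 0.08. Acta2, smooth-muscle actin, was -0.14 ± 0.16 at low protein and rose by 0.79 ± 0.17 on control diet, and its difference of -0.93 ± 0.23 passed at an adjusted p of 0.0396 but lost its call in 16 of 31 fits. The 4 pancreatic markers measured of 10 had a median of 0.06, with Cela1 at 6.42 in ATF7+/- and 6.38 in wild-type livers, and the 4 fat markers measured of 8 a median of -0.01.

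No gene of the other metabolic lists passed, and the lists differed in how narrow their intervals were. All 45 measured oxidative phosphorylation genes had 95% intervals within 1.5-fold with a median of 0.001, as had 30 of 31 ribosomal protein genes with a median of -0.01 and all 17 urea cycle and amino acid breakdown genes with a median of 0.03. The ATF4 amino acid response list had a median of -0.09 over 16 genes, of which 11 were within 1.5-fold and the lowest was at -0.39. Fatty acid oxidation (25 genes, median 0.02), gluconeogenesis and insulin signalling (14, 0.004), acute phase (19, 0.05), coagulation and complement (26, 0.08), endoplasmic reticulum chaperones (17, 0.03), pericentral (17, -0.04) and periportal genes (11, 0.07) also had 0 genes that passed. Their intervals were wider in places, with 19 of 25 fatty acid oxidation genes (lowest -0.60), 14 of 19 acute phase genes and 12 of 17 pericentral genes (highest 0.70) within 1.5-fold. The serine-synthesis enzyme Psph was the only ATF4-list member at an unadjusted p under 0.05 (-0.22).

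Against ATF7+/+ livers of low-protein fathers, which share the ATF7+/- arrays with the main comparison, 0 genes passed by limma (0%), with 908 at an unadjusted p under 0.05 (6.71%). The 3 set A arrays of the ATF7+/+ group stood apart on the second principal component of the probe sets with no listed gene (-0.32 to -0.27, against 0.14 to 0.20 for the set A ATF7+/- arrays), and within set A alone 1218 genes passed. What sets these arrays apart and the genotype cannot be told apart there, and the values that follow rest on all arrays. The cell cycle list gave -0.21 there against -0.53 with wild-type livers, and the cholesterol list -0.02 against -0.35. The fetal and imprinted list gave 0.06 against -0.30. Genes near Atf7 were also examined. Of 115 genes tested within 5 Mb of Atf7, by the position in the RefSeq gene table, 0 passed, 6 had an unadjusted p under 0.05 with lower means (5.22%, against 2.13% of all genes) and 0 with higher means, and the differences ran from -0.53 to 0.19; Espl1 and Troap are 2 of the 6. Within 20 Mb there were 206 genes, of which 7 (3.40%) had such a p.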

How the data were processed

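Liver RNA was labelled and hybridised to Affymetrix gene arrays. The authors deposited 1 log2 value per probe set and array; the submitters' processing notes name RMA and Affymetrix Expression Console, without a version. They were used as deposited (35556 probe sets). Arrays have no depth, and their number limits the precision.

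Of the probe sets, 21789 carried a single symbol, 1621 several and 12146 were not listed; 21698 were matched by Entrez ID to GRCm38.p6 names and 0 changed. Probe sets with a mean at or above the 40th percentile (5.46) were kept, and the brightest stood for its gene (705 genes had several), which left 13542 genes. Near-identical arrays of a group (variability ratio under 1.5, 2 pairs, both in groups other than the low-protein ones compared) were averaged, which left 46 samples. Group means of all 6 groups were fitted with limma 3.58.1 in R 4.3.3, two-sided, with Benjamini-Hochberg adjustment over all genes. Steps were tested on simulated data. Figures used matplotlib 3.10.9 in Python 3.11.15.

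The members, gene lists and many tests were chosen with earlier results of these data known. Named genes were Atf7, the 15 largest changes each way among genes that passed or, where fewer than 10 passed, the 10 smallest p in that direction, up to 4 smallest-p members of each list, and the 5 smallest p between diets. Genes named outside this rule, after their values were seen, were those whose groups did not overlap, those called within set A, Alb, Hnf4a, Ccna2, Ccnb2, Mki67, Top2a, Tyms, Mcm5, Insig1, Stard4, Srebf2, Acly, Elovl5, Scd1, Fabp5, Igf2 and Mest. Same-numbered low-protein arrays were correlated in their deviations from group means (r 0.225 to 0.756), and each pair lay in 1 array set; within sets r was -0.101 to 0.368. Promoter letters are RefSeq's, build GRCm38.p6.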

Additional observations from a re-analysis of the deposited data

Results flagged for a closer look

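Dixon's test of the highest and lowest array, run on 124 gene-by-group checks over 62 probe sets, marked 5 values, where chance flags about 1 in 20 groups. In ATF7+/- livers of low-protein fathers, replicate 8 was lowest for Kif11, at 5.42 with the others at 6.0 to 6.46, and for Igf2bp3, at 7.01 with the others at 7.39 to 7.59. Replicate 6 of that group was highest for Cyp2a12, at 12.03 with the others at 11.73 to 11.84. In wild-type livers of low-protein fathers, replicate 4 was lowest for Arntl, at 5.26 with the others at 7.03 to 8.21, and replicate 8 was highest for Acta2, at 8.33 with the others at 7.44 to 7.84.

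The genotype difference itself differed between the paternal diets for 86 genes by limma's interaction test. Among the genes named, in log2 units and as low protein minus control diet, the cholesterol and lipid genes gave Sqle -2.68, Hmgcs1 -2.16, Mvd -1.84, Dhcr7 -1.63, Mvk -1.25 and Srebf2 -0.73, with Acss2 -2.17, Acly -1.67, Elovl5 -0.90, Scd1 -0.39 and Fabp5 -2.97. Cell division genes gave Ccna2 -1.94, Mki67 -1.89, Top2a -1.41, Prr11 -1.40, Kif11 -1.36, Nusap1 -1.35, Kif18b -0.92, Cenpa -0.63 and Espl1 -0.45. The rest were Rdh11 at -2.11, Rps23rg1 at -1.65, Mest at -1.23, Acta2 at -0.93, Riok2 at 0.57 and Sugct at 0.82.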

How the results depend on the processing

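The count of 0 genes between ATF7+/- and wild-type livers of low-protein fathers became 6 in array set A alone and stayed at 0 under every other alternative run, the replicate block and each left-out array included. The first Atf7 probe set ran from -0.17 to -0.10 and the second from -0.65 to -0.48 with 1 array left out. The second probe set passed with array weights (-0.56) and in set B alone (-0.53). Against ATF7+/+ livers the count of 0 became 1 with probe sets averaged per gene, 2 with the array set as a block and 1218 in set A alone.

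The 224 genes on control diet became 69 with only the compared groups in the fit and 32 with those groups and a replicate block, 822 with the array set as a block, 898 in set A alone, 447 in set B alone, 57 in arrays with high and 0 in arrays with low Y-linked levels, and 121 (without wild-type replicate 8) to 302 (without wild-type replicate 3) with 1 array left out; without ATF7+/- replicate 4 it was 149. The 86 genes between diets became 178 with array weights, 299 with the array set as a block, 280 in set A alone, 181 in set B alone, 18 in the high and 1 in the low Y-linked arrays, and 49 (without replicate 8 of either low-protein group) to 167 (without control-diet wild-type replicate 2) with 1 array left out; without control-diet wild-type replicate 8 it was 52. A replicate block in all groups gave 267 and 108, of which 211 and 84 were shared with the fit without it. The Y-linked splits and the control-diet left-out arrays were added after the data were seen.

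In set A alone the low-protein difference reversed for Acly (0.37), Acss2 (0.33), Acta2 (0.13), Dhcr7 (0.13), Elovl5 (0.083), Mvd (0.41), Rdh11 (0.043), Scd1 (0.06) and Sqle (0.30), and in set B alone for Ciart (-0.23; 0.31 without wild-type replicate 4) and Stat5b (0.028). In the high Y-linked arrays it reversed for Acta2 (0.17) and Scd1 (0.016); with 1 array left out Scd1 ran from -0.061 to 0.0063, the highest without ATF7+/- replicate 7. Causes were not tested. Signal over background is not in the deposited values.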
